A study of Mus musculus with 6 samples.

Results

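The genes described here encode proteins that sit on the surface of lipid droplets: the perilipins Plin2, Plin3, Plin4 and Plin5, the CIDE proteins Cidea, Cideb and Cidec, and G0s2. They were chosen by name, as all probe sets whose single annotated gene symbol is one of these 8, which gave 9 probe sets out of 45101 and 8 genes out of 18193 with a named probe set. RNA was taken from frozen liver of 6 male mice and hybridized to Affymetrix 3′ arrays, 1 array per mouse, with 3 wild-type mice (WT) and 3 mice lacking ChREBP in the liver (ChLO). ChLO mice came from a cross of mice with floxed Chrebp (current symbol Mlxipl) to an albumin-Cre line, whose recombinase is aimed at hepatocytes. Which other cells of the liver keep the gene cannot be read from whole-liver arrays. The controls are labelled only as wild type, with nothing on whether they carried a floxed allele or Cre. All 6 animals were given food with 60% sucrose for 1 week at 12 weeks of age. The question is how the transcripts of droplet proteins stand in a liver that lacks this carbohydrate-activated factor during a sucrose load.

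A lipid droplet is a core of triglyceride and sterol ester under a single layer of phospholipid. Perilipins coat this layer and govern access of lipases to the core, with Plin2 the main coat of the hepatocyte droplet and Plin5 a coat that tethers droplets to mitochondria. CIDE proteins gather at contacts between droplets, where they pass lipid from the smaller to the larger droplet, and Cideb also takes part in loading lipid onto very low density lipoprotein. G0s2 binds and inhibits Pnpla2, the adipose triglyceride lipase ATGL. In fatty liver Plin2, Cidea and Cidec are known to be high, and Plin4, Cidea and Cidec are otherwise typical of adipocytes.

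The values are log2 signals on the scale the authors deposited. The deleted gene was lower in every ChLO array. Mlxipl ranged from 12.56 to 12.61 in WT and from 10.34 (ChLO 1) to 11.48 (ChLO 3) in ChLO. This checks the labels only in part, because the sources do not say if its probe set matches a floxed exon. The tissue label was borne out, since 6 of 6 measured hepatocyte markers passed the filter on low values. Their signals summed, on the linear scale, to between 292696 and 344042 in WT and between 236288 and 304910 in ChLO. ChLO 1 and ChLO 2 stood apart from ChLO 3. Linear signals of 7 macrophage markers summed to 14325 and 13691 there against 7084 in ChLO 3 and 7391 to 8679 in WT. Those of 6 stellate cell markers summed to 11528 and 14950 against 5787 in ChLO 3 and 4995 to 8339 in WT. The macrophage markers did not all move alike. In ChLO 1 Cd68, Cd5l, Lyz2, Marco and Itgam were above every WT array. Adgre1 (9.30, WT 9.15 to 9.62) was inside the WT range there, and Clec4f (9.95, WT 10.63 to 10.67) below it. In ChLO 2 Marco was inside the WT range and the others above it. Lyz2, at 12.60, was the brightest of the list in ChLO 1 and weighs most in that sum. For Actb the log2 signal of the 3′ probe set exceeded that of the 5′ probe set, a measure of RNA integrity, by 0.84, 1.03 and 1.46 in ChLO 1, 2 and 3 and by 1.13 to 1.38 in WT. For Gapdh the same measure was -0.25, -0.20 and -0.14 in ChLO 1, 2 and 3, inside the WT range of -0.31 to -0.13.

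Among the lipid droplet genes, no member differed between ChLO and WT beyond the spread between mice once p-values were adjusted over all genes. Cideb was the only member with groups that did not overlap, 1.42-fold lower in ChLO. The main droplet coat, Plin2, had nearly equal means, and G0s2 and Cidec spread too widely among arrays of a group for a difference to be resolved. For Cidec that spread includes arrays far under the level of the filter on low values. Of the 8 genes, 7 passed the filter, a mean log2 signal of at least 5.50 over the 6 arrays, and Cidea did not. Of these 7, limma (adjusted over 12598 genes tested, threshold 0.05) called 0, where it also called 0% of all genes. At an unadjusted p under 0.05 there was 1 of 7, Cideb, on the lower side, against 3.5% of all genes on that side, 5.46% on the higher side and 8.96% on either. That count of 1 became 0 without WT 1 or ChLO 1 and 2 without ChLO 3 (Cideb and G0s2), and without ChLO 2 the 1 gene was Plin4. The share of all genes on the lower side was 2.68% without WT 1, 3.10% without ChLO 1, 2.79% without ChLO 2 and 8.04% without ChLO 3, where 20.4% of all genes had such a p in either direction. Groups did not overlap for the same 1 of 7, lower in ChLO, against 6.19% of all genes lower, 9.04% higher and 15.2% in either direction, so 1 of 7 is about the background. With every probe set as its own unit, limma called 0 of the 8 member probe sets past the filter after adjustment, where it called 0.0296% of all. The median difference over the 7 was -0.29 on the log2 scale, and over all genes tested it was 0.060. The median size of the difference, without its sign, was 0.47 and 0.26. With 3 arrays a group an exact permutation test of 1 gene cannot go below a 2-sided p of 0.10.

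**Figure D1:**
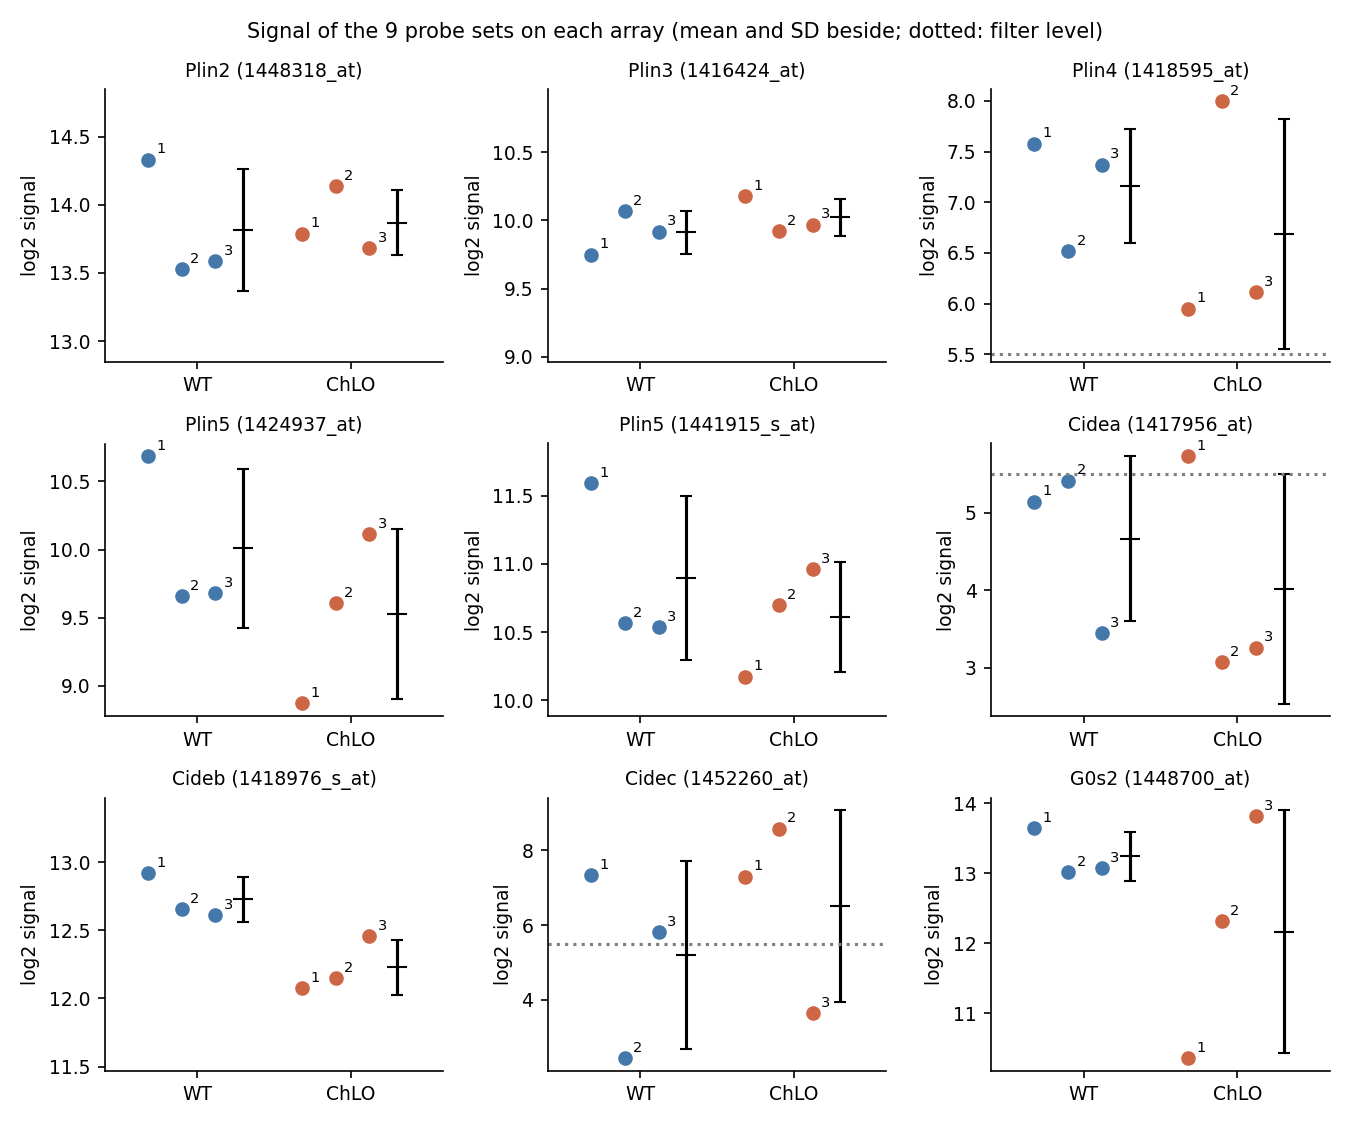
Log2 signal of each of the 9 probe sets on the 6 arrays, 1 panel per probe set; numbered points are mice, the bar beside each group is the mean with its SD (n = 3), and the dotted line is the filter level of 5.50. Only in the Cideb panel do all 3 ChLO points lie below all 3 WT points.

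Promoter stretches of 3 members are shown because the study removes a factor that binds E-boxes: Plin2, the main coat, Cideb, the member whose groups separated, and G0s2, the member with the lowest mean in ChLO relative to WT. RefSeq windows of 250 bases before to 50 after the start (GRCm38.p6) were found for 7 of the 8 genes, all but Cidea, in 9 windows. Each line gives 100 bases in the direction of transcription that end just before the start, or for Plin2 at the second base transcribed from the start of its window. Capitals mark the E-box CACGTG.
Plin2 (chr4:86670058-86670157, minus strand): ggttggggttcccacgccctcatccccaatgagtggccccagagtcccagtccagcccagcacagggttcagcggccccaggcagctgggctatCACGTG
Cideb (chr14:55758425-55758524, minus strand): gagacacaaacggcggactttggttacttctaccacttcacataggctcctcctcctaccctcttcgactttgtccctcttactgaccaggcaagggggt
G0s2 (chr1:193273189-193273288, minus strand): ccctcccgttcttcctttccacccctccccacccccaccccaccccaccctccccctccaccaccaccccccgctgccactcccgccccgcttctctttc
The E-box, whose letters read alike on both strands, was present in 1 of the 9 windows, that of Plin2, where it spans the start used for that window. The annotated Plin2 gene reaches to 86670217, upstream of the printed stretch, so this E-box lies inside the gene as annotated. Of all 32851 windows, 7.15% held the E-box. An exact tandem of 2 E-boxes at the spacing of a carbohydrate response element was in 0 of all windows. Its absence therefore sets no member apart and cannot show that a less exact element is lacking. The exact direct repeat of a PPAR response element, searched on both strands, was in 0 of the 9 and in 0.0396% of all. These matches describe the letters of the windows and no binding.

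Plin2, the coat of the hepatocyte droplet, read 14.33, 13.53 and 13.59 in WT 1, 2 and 3 and 13.79, 14.13 and 13.68 in ChLO 1, 2 and 3. The highest array was WT 1 and the lowest WT 2, so every ChLO array lay inside the WT range. The difference was 0.053 (SE 0.25), with a 95% interval from 0.69 to 1.56 times the WT signal (limma adjusted p = 0.958). Its sign changed without WT 2 (-0.090), WT 3 (-0.062) or ChLO 2 (-0.081), and it was 0.31 without WT 1. In whole liver, fewer cells of a type and less RNA per cell cannot be told apart, which holds for every value here.

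Plin3, the coat protein found in the cytosol and on small new droplets, was the steadiest member. It read 9.75, 10.07 and 9.92 in WT and 10.18, 9.92 and 9.97 in ChLO, with only ChLO 1 above the WT range. The difference was 0.11 (SE 0.18), and the interval ran from 0.82 to 1.43 times the WT signal (limma adjusted p = 0.851). The SD over both groups was 0.15, and 90.0% of the genes tested had a larger one.

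Plin4, an adipocyte and muscle perilipin that binds nascent droplets, was dim and variable. Its signals were 7.58, 6.52 and 7.37 in WT and 5.95, 8.00 and 6.11 in ChLO. ChLO 1 and ChLO 3 were below all WT arrays, while ChLO 2 was above all of them. The mean difference of -0.47 (SE 0.59) did not pass (limma adjusted p = 0.811), and the interval from 0.28 to 1.87 times WT left either direction possible. Without ChLO 2 it was -1.13 (adjusted p = 0.869 by limma), without WT 1 -0.26, without ChLO 1 -0.10 and without ChLO 3 -0.18.

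Plin5, the perilipin of oxidative tissues, had 2 probe sets that followed each other over the arrays. The brighter one read 11.59, 10.57 and 10.54 in WT and 10.17, 10.70 and 10.96 in ChLO, and the other read 10.68, 9.66 and 9.68 in WT and 8.87, 9.61 and 10.11 in ChLO. On both, WT 1 was the highest array and ChLO 1 the lowest. The differences were -0.29 (SE 0.33) for the brighter, with limma adjusted p = 0.787 and an interval from 0.48 to 1.39 times WT, and -0.48 (SE 0.38) for the other in the fit over all 27022 probe sets. Leaving out WT 1 turned the first to 0.057, leaving out ChLO 1 brought it to -0.072, and without WT 2, WT 3 or ChLO 3 it was -0.46, -0.47 and -0.47. In GRCm38.p6 Plin4 and Plin5 are neighbours on chromosome 17, with 7 protein-coding genes between Plin5 and Plin3. Plin4 and Plin5 were lowest in ChLO 1, and Plin3 was highest there.

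Cideb, the CIDE protein of hepatocytes, read 12.92, 12.66 and 12.61 in WT and 12.08, 12.15 and 12.46 in ChLO. The highest ChLO array, ChLO 3, lay 0.15 below the lowest WT array, WT 3, in log2 signal. The difference was -0.50 (SE 0.18), an interval from 0.53 to 0.94 times the WT signal. Its limma p was 0.0225 before adjustment and 0.498 after, with an exact permutation p of 0.10, the smallest that 3 arrays against 3 can give. The sign held when each array was left out, with differences from -0.62 without ChLO 3 to -0.41 without WT 1. The unadjusted limma p was above 0.05 without WT 1 (0.0884), without ChLO 1 (0.0537) and without ChLO 2 (0.0794). It was also above 0.05 with arrays scaled to the spike-in controls (0.172, difference -0.25). These are the hybridization controls bioB, bioC, bioD and cre, and they were not taken as a measure of RNA per tissue.

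Hepatocyte marker signals moved the same way as Cideb. All 6 measured markers had lower means in ChLO, and 2 of the 6 had groups that did not overlap. In ChLO 1, 2 and 3 their median difference from the WT mean came to -0.35, -0.41 and -0.089, and that of Cideb to -0.65, -0.58 and -0.27. Their part in the lower Cideb signal was not tested.

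Cidec, also called FSP27, which fuses droplets into large ones, varied more than nearly any other gene. Its signals were 7.35, 2.43 and 5.81 in WT and 7.30, 8.59 and 3.65 in ChLO. On the linear scale these are 163.0, 5.39 and 56.3 in WT and 157.5, 385.0 and 12.5 in ChLO, so WT 2 and ChLO 3 lay far under the filter level of 45.2. ChLO 2 was the highest array and WT 2 the lowest, with the groups overlapping over most of the range. The SD over both groups was 2.54, at the 99.9th percentile of all genes tested. The difference of 1.31 (SE 1.54) had an interval from 0.21 to 29.2 times WT (limma adjusted p = 0.795). It became -0.070 without WT 2, 0.28 without ChLO 2, 0.92 without ChLO 1, 2.39 without WT 1 and 2.75 without ChLO 3.

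Cidea, the CIDE protein of brown fat that also appears in fatty liver, was below the filter level. It read 5.14, 5.41 and 3.45 in WT and 5.72, 3.07 and 3.26 in ChLO, and only ChLO 1 was above 5.50. No fold is drawn from signals this dim. Of the 7 adipocyte markers, 5 had a named probe set, and Adipoq, Lep and Ucp1 were below the filter in their mean. Linear signals of the 5 summed to between 258.7 and 555.1 in WT and between 276.0 and 575.7 in ChLO. Lipe, at log2 7.36 to 8.47, was the brightest of the 5 on every array and weighs most in these sums. It is also in the list of lipases below, so the sums are no measure of adipocytes alone.

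G0s2, the inhibitor of ATGL, differed widely among ChLO mice, over a range of 3.46 log2 units that only Cidec, at 4.94, exceeded among the tested members. It read 13.65, 13.01 and 13.07 in WT and 10.35, 12.32 and 13.82 in ChLO. On the linear scale WT arrays stood at 12858, 8276 and 8616, and the ChLO arrays at 1310, 5117 and 14421. ChLO 1 and ChLO 2 were below every WT array, and ChLO 3 was above every WT array. The SD was 0.35 in WT and 1.74 in ChLO, the latter at the 98.5th percentile of genes tested.

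The mean difference of G0s2 was -1.08 (SE 0.74), an interval from 0.14 to 1.55 times WT (limma adjusted p = 0.671). Without ChLO 3 it was -1.91 (limma adjusted p = 0.0971), and without ChLO 1 it was -0.18 (limma adjusted p = 0.957). ChLO 1 and ChLO 2, the arrays with low G0s2, are also those with the high summed macrophage and stellate cell marker signals given above, though not every macrophage marker was high there. The part of these cells in the G0s2 values was not tested.

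**Figure D2:**
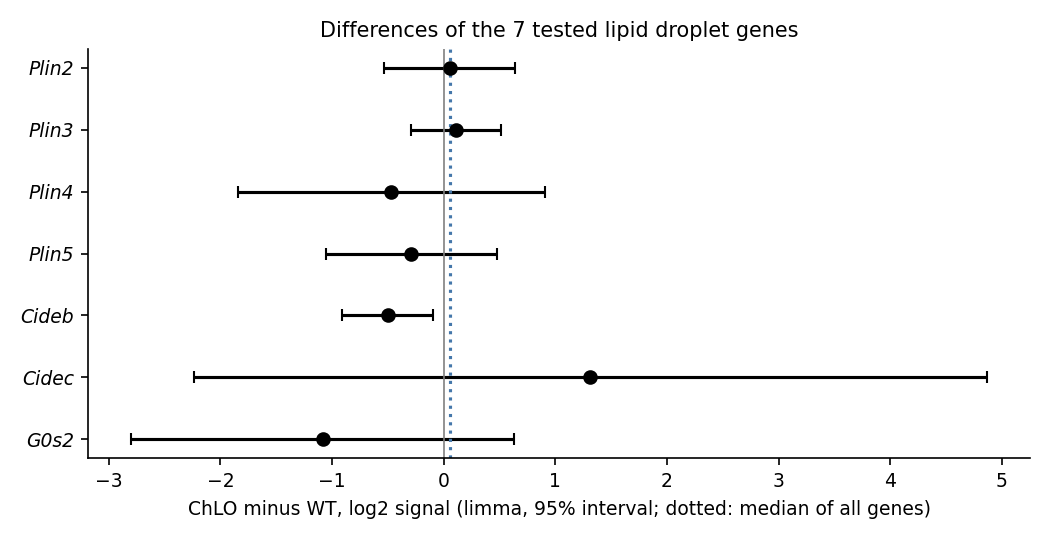
ChLO minus WT difference in log2 signal for the 7 tested genes, with 95% intervals from limma (n = 3 arrays per group); the dotted line is the median of all genes tested, 0.060. Intervals of 6 genes cross 0, and that of Cideb, -0.91 to -0.092, does not before adjustment for the number of genes.

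**Figure D3:**
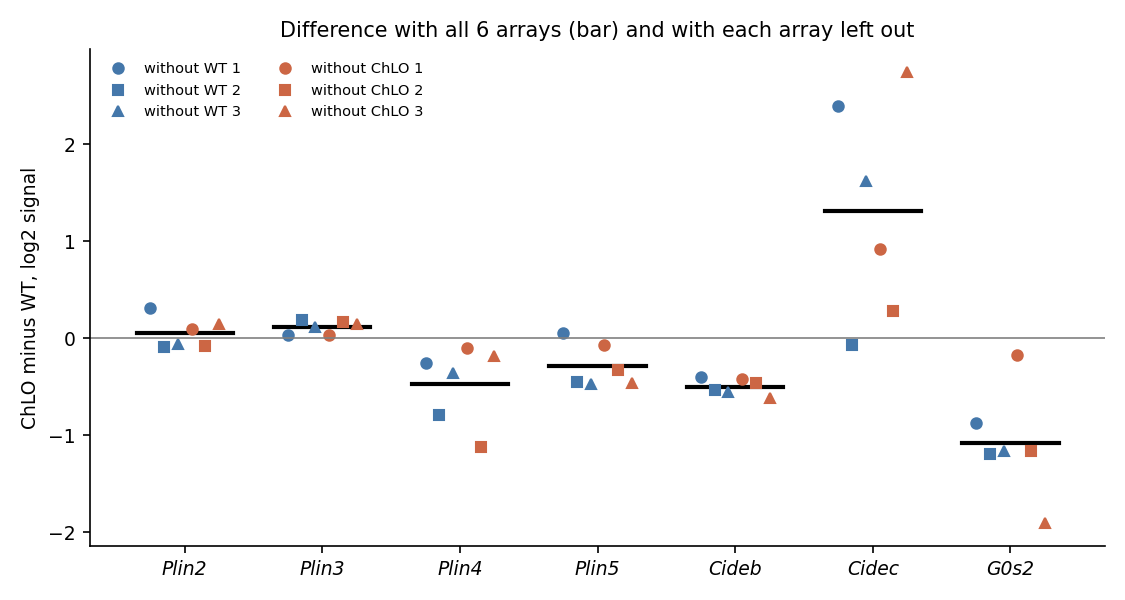
ChLO minus WT difference in log2 signal for the 7 tested genes with all 6 arrays (black bar) and with each array left out in turn (points, keyed by the array removed). Cideb stays between -0.62 and -0.41, while Cidec runs from -0.070 to 2.75 and G0s2 from -1.91 to -0.18.

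The members did not move as a set. With all 6 arrays 3 of the 7 tested were higher and 4 lower, where 43.5% of all genes were lower (21.2% with spike-in scaling). Cidec, 1 of the 3 higher, had a WT mean under the filter level. By array the median difference of the members from the WT mean was 0.42, -0.29 and -0.12 for WT 1, 2 and 3. For ChLO 1, 2 and 3 it was -0.65, 0.012 and -0.13. The arrays of each genotype thus overlapped. WT 1 was the highest WT array for Plin2, Plin4, Plin5, Cideb, Cidec and G0s2. ChLO 1 was the lowest of all arrays for Plin4, Plin5, Cideb and G0s2, but the highest for Plin3 and Cidea. Of the 7 genes, 5 had an SD over both groups above the median of all genes tested, 0.35.

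Profiles over the 6 arrays, each centred on its own mean, were compared for Cidec, G0s2 and Cideb, the tested members with the largest mean differences. Likeness is the root mean square distance in log2 units, over the 6 arrays and all 12598 genes. The gene most like Cideb was Ecsit, at 0.053, then Ggcx, at 0.060, and Bscl2, at 0.069, where the spread of Cideb about its own mean was 0.29. Bscl2 encodes seipin, the protein of the endoplasmic reticulum at which droplets form, and read 11.91, 11.77 and 11.76 in WT and 11.22, 11.24 and 11.44 in ChLO. Nearest to G0s2 were Reg2, at 0.30, 1700067K01Rik, at 0.35, and E430016F16Rik, at 0.38, against a spread of 1.16. Those of Cidec were Spink1, at 0.76, Ccnb2, at 0.78, and Dusp8, at 0.89, against a spread of 2.18. With 6 arrays and this many genes some profiles lie close, and nothing is read from the pairs.

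The next list holds lipases and other hydrolases of the hepatocyte and regulators of lipolysis. Of 12 tested, 9 were lower and 3 higher with a median of -0.50, where 43.5% of all genes were lower. At an unadjusted p under 0.05, 5 were lower, against 3.5% of all genes, while limma called 0 after adjustment. Of the 5, 4 had no overlap, against 6.19% of all genes on the lower side. The 5 became 3 without WT 1 or ChLO 2, against 2.68% and 2.79% of all genes lower. Without ChLO 1 or ChLO 3, 1 gene was higher, against 3.09% and 12.4% of all genes. With spike-in scaling the median was -0.26, and 3 genes were lower and 1 higher at that threshold, against 1.42% and 14.6% of all genes. Ldah then differed by -0.28 (limma adjusted p = 0.439). Without the variance trend 3 were lower, against 3.63% of all genes. Mgll, which splits monoacylglycerol, differed by -1.67 (SE 0.46) and read 12.87, 12.14 and 12.69 in WT and 9.89, 11.86 and 10.95 in ChLO. Ddhd2, a triglyceride and phospholipid hydrolase, differed by -0.97 (SE 0.27), Aadac, a hydrolase of the endoplasmic reticulum, by -0.76 (SE 0.22), and Ldah, a droplet hydrolase, by -0.53 (SE 0.20). The adjusted p of these 4 genes by limma lay between 0.431 and 0.530. The other of the 5, Pnpla3, had the largest difference of the list, -2.25 (SE 0.96, limma adjusted p = 0.549), with groups that overlapped. Pnpla2, the lipase that G0s2 inhibits, read 9.89, 9.98 and 9.85 in WT against 9.91, 10.31 and 10.51 in ChLO, a difference of 0.33 (SE 0.20). Its activator Abhd5 differed by 0.10 (SE 0.31). Hilpda, a second inhibitor of the same lipase, read 7.27, 5.96 and 7.21 in WT and 7.99, 8.67 and 6.63 in ChLO, so ChLO 1 and ChLO 2 were above all WT arrays and ChLO 3 was not. Pnpla2, Pnpla3, Abhd5 and Hilpda were chosen after their values were seen.

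Genes that build the droplet and its triglyceride were split. Of 17 tested, 9 were lower and 8 higher with a median of -0.055. At an unadjusted p under 0.05, 6 were lower and 1 higher, against 3.5% and 5.46% of all genes, and limma called 0 after adjustment. The 1 became 0 without WT 2, WT 3 or ChLO 2 and 2 without ChLO 1, and the median was above 0 without WT 2 or ChLO 2 and with spike-in scaling (0.19). Lpin1, which makes diacylglycerol for triglyceride, was lower by the widest margin and read 13.49, 13.86 and 13.95 in WT against 11.71, 10.92 and 10.88 in ChLO (difference -2.60, SE 0.26, limma adjusted p = 0.0528). Mttp, which loads lipid onto lipoproteins, differed by -1.09 (SE 0.20), Agpat2, an acyltransferase, by -0.86 (SE 0.21) and Bscl2 by -0.51 (SE 0.15, limma adjusted p = 0.455), with no overlap for any of the 4. Lpin1 passed without ChLO 1 (adjusted p = 0.00515) and without ChLO 3 (0.0134), and Mttp without ChLO 3 (0.0405). Over all genes 4 were called without ChLO 1 and 302, or 2.40%, without ChLO 3. Of 12 other droplet-associated proteins, 7 were lower and 5 higher with a median of -0.035 that was 0.12 without WT 1, 0.046 without WT 2, 0.032 without ChLO 3 and 0.21 with spike-in scaling. Limma gave 0 of the 12 an adjusted and 0 an unadjusted p under 0.05, with 1 at the latter, lower, without ChLO 3 and 1, higher, without ChLO 1.

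Receptors known to drive the members were measured too. PPAR gamma drives Cidea, Cidec and Plin4 in fatty liver. Of its list 5 of 5 genes were higher with a median of 1.18, where 56.5% of all genes were higher. At an unadjusted p under 0.05, 3 of the 5 were higher, or 1 without WT 2, ChLO 1 or ChLO 2. Of all genes 5.46% were higher at that threshold, and 4.12%, 3.09% and 2.77% without WT 2, ChLO 1 and ChLO 2. Pparg itself read 7.38, 6.39 and 6.20 in WT and 8.33, 8.24 and 6.98 in ChLO (difference 1.20, SE 0.48, limma adjusted p = 0.535). Fabp4, a fatty acid binding protein, differed by 1.18 (SE 0.28) with no overlap, or by 0.68 over the mean of its probe sets, and Lpl, lipoprotein lipase, by 1.49 (SE 0.61). Lpl differed by 0.85 without ChLO 1. Without ChLO 3 both passed, at limma adjusted p = 0.0253 for Fabp4 and 0.0446 for Lpl, in a fit that called 302 of all genes. Side by side with these, Cidec was high in ChLO 1 and ChLO 2 but also in WT 1, and Plin4 was high only in ChLO 2 among ChLO arrays. Fabp4 and Lpl are also transcribed in endothelial cells and macrophages, whose summed marker signals were higher in the same 2 arrays, though not every macrophage marker was. Endothelial markers summed to 4119 and 4280 there against 2523 in ChLO 3 and 2362 to 3079 in WT, as linear signal. In ChLO 3 Fabp4 read 10.63, above WT 1, 2 and 3 at 10.30, 10.06 and 9.64. Lpl read 10.23 there, inside the WT range of 9.61 to 10.73. The part of endothelial cells and macrophages in the Fabp4 and Lpl values was not tested.

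PPAR alpha, the fasting-activated receptor of the hepatocyte, drives Plin2, Plin5 and G0s2. Its list of 11 tested genes had 6 lower and 5 higher with a median of -0.13, and limma gave 0 an adjusted and 0 an unadjusted p under 0.05, with 1 at the latter, higher, without WT 1 and 2 without ChLO 1. The median was 0.29 without ChLO 1, 0.15 without WT 1, 0.12 with spike-in scaling, 0.31 with array weights and 0.050 over the mean of all probe sets of each gene. By array the median difference of the list from the WT mean was 0.41, -0.29 and -0.20 for WT 1, 2 and 3 and -1.12, 0.44 and 0.36 for ChLO 1, 2 and 3. The brighter probe set of Plin5 was at 0.69, -0.33 and -0.36 and at -0.73, -0.20 and 0.061 in the same order. WT 1 was thus the highest WT array and ChLO 1 the lowest array of all in both. The highest array of all differed. It was ChLO 2 for the list, where Plin5 was at -0.20, and WT 1 for Plin5. Plin2 was at 0.52, -0.29 and -0.23 in WT and at -0.027, 0.32 and -0.13 in ChLO, so its lowest array was WT 2. G0s2 was at 0.40, -0.23 and -0.17 in WT and at -2.89, -0.93 and 0.57 in ChLO. It was thus lowest in ChLO 1 but also low in ChLO 2, where the list was at 0.44. The part of PPAR alpha in these values was not tested. Ppara differed by -0.37 (SE 0.32), and by 0.0037 without ChLO 1.

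Targets of ChREBP were measured beside the members, in a list chosen with earlier results of these data known. Of its 12 genes 12 were lower with a median of -3.02, where 43.5% of all genes were lower. At an unadjusted limma p under 0.05, 11 were lower, against 3.5% of all genes, and limma called 0 after adjustment. Klf10, a zinc finger repressor, differed by -1.83 (SE 0.19), Rgs16, a regulator of G protein signalling, by -3.84 (SE 0.40), Pklr, liver pyruvate kinase, by -3.64 (SE 0.45) and Thrsp, a lipogenic protein, by -2.86 (SE 0.41). Among 5 lipogenic regulators 4 were lower, and Srebf1 was the only 1 of the 5 at an unadjusted limma p under 0.05 (difference -1.19, SE 0.32), with 2 lower without WT 3, without ChLO 2 or with the replicate block and 1 higher without ChLO 3.

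**Figure D4:**
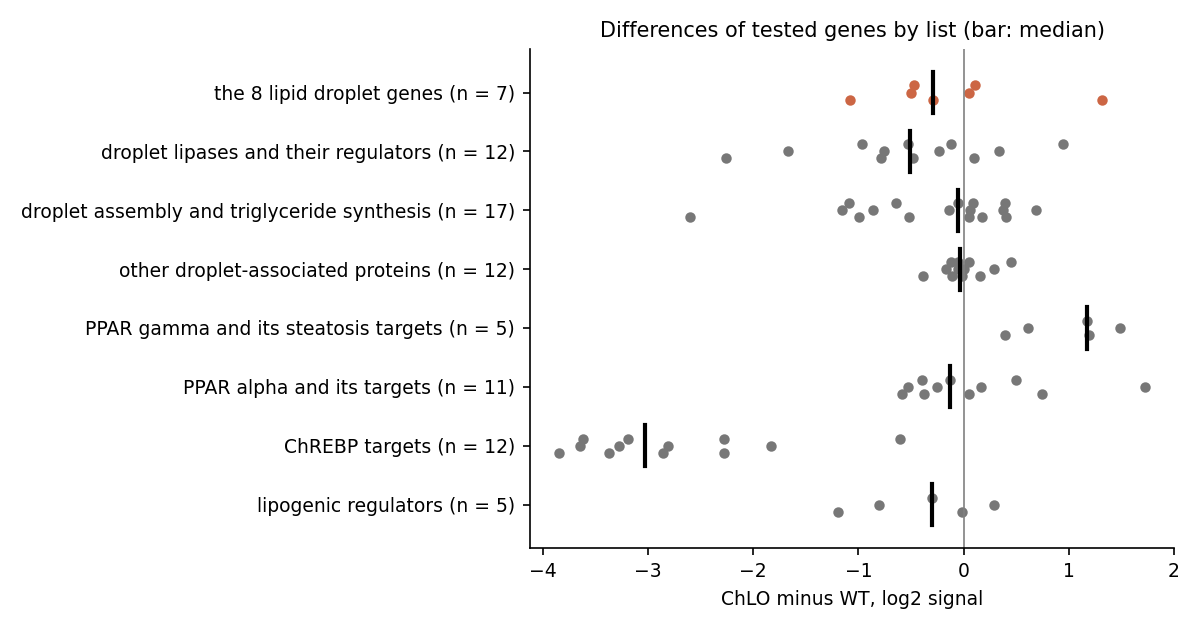
ChLO minus WT difference in log2 signal of each tested gene, by list, with the number of genes in parentheses and a bar at the median; the 8 lipid droplet genes, of which 7 were tested, are in orange. ChREBP targets lie at a median of -3.02 and the lipid droplet genes at -0.29.

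Other cell types were described by their marker lists. Among stellate cell markers 6 of 6 were higher, where 56.5% of all genes were. Acta2, smooth muscle actin, and Col1a2, a collagen chain, had an unadjusted limma p under 0.05 (differences 1.54, SE 0.56, and 1.41, SE 0.58). Of all genes 5.46% were higher at that threshold. Among cholangiocyte markers 3 of 4 were higher, among endothelial markers 4 of 4, among macrophage markers 5 of 6, and among red cell markers the 1 tested was lower.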

How the data were processed

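Per the labels' protocols, 100 mg of frozen liver per mouse gave total RNA, of which 8 ug was labelled with biotin. The authors deposited log2 signals of 45101 probe sets on 6 arrays. Per the submitters' processing notes the tool was MAS5, whose version is not stated. After conversion to linear signal, the mean of each array was 500 with 2% trimmed from each end, so arrays share 1 average and a shift of most transcripts would not be seen. Detection calls were not used here. Depth has no meaning for arrays, and their number limits the precision.

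Probe sets were named through the platform annotation (34945 had 1 symbol, 932 several, 9160 none, and 64 were controls). Control probe sets and those below the 40th percentile of mean signal (log2 5.50) were left out, which kept 27022. A gene was read from its brightest probe set by the mean of all 6 arrays. limma 3.58.1 in R 4.3.3 (lmFit, eBayes with a trend) compared ChLO with WT over 12598 genes, without a block, with Benjamini-Hochberg adjustment. SE is the moderated standard error. The labels call the samples biological replicates. The procedure was tested on simulated data.

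Named are the 8 members, Mlxipl, up to 4 genes of each of 14 lists at an unadjusted p under 0.05, Pparg, Ppara and Srebf1, and the 3 nearest profiles of 3 tested members. Pnpla2, Pnpla3, Abhd5, Hilpda, Lipe and the 7 macrophage markers were added outside this rule, after their values were seen. The members and lists were chosen with earlier results of these data known. Both groups use replicate numbers 1 to 3. Deviations of arrays with the same number correlated at 0.30, -0.17 and 0.063, so numbers were not taken as pairs. Alternatives were other scalings, filters, variance models, array weights, probe set rules, the replicate block and leaving out each array.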

Additional observations from a re-analysis of the deposited data

How the results depend on the processing

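The number of members called by limma after adjustment was 0 in all 11 other settings and in all 6 fits without 1 array. The number lower at an unadjusted p under 0.05 was 1, and it was 0 with spike-in scaling, 2 with array weights, 0 without probe sets of the _x_at and _s_at kinds, where Cideb has no other probe set, and 0 to 2 with an array left out. The number higher was 0, and 1 with array weights. Over all genes the share lower at that threshold was 3.50%, and 1.42% with spike-in scaling, 9.96% with array weights and 3.48% without those probe sets, and the share higher was 5.46%, 14.6%, 14.9% and 5.43% in the same order. Array weights called 568 of all genes after adjustment. Members without overlap numbered 1 of 7, where 15.2% of all genes had none, and 0 without _x_at and _s_at probe sets. With an array left out they numbered 1 to 2. Groups of fewer arrays separate more easily, and the share of all genes without overlap was not counted outside the main setting, so nothing is read from that change. At the level of probe sets 0 of 8 were called, and 1 with array weights, a setting that called 4.51% of all genes. The share of all probe sets was not counted there. Over the other lipid gene lists 0 genes were called, with 3 without a filter, 23 with array weights, 3 without _x_at and _s_at probe sets, 1 with the replicate block and 0 to 11 with an array left out. The array weights ran from 0.37 for ChLO 3 to 4.58 for ChLO 2, and that estimate stopped before it converged.

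Signs turned for Plin4, at 0.51 with array weights. With an array left out, Plin2 ran from -0.090 to 0.31, Plin5 from -0.47 to 0.057, Cidec from -0.070 to 2.75 and Ppara from -0.63 to 0.0037. The other 3 tested members, Plin3, Cideb and G0s2, kept their sign in every setting that gave a value. Spike-in scaling moved the median of all genes by 0.25, and the 7 tested members kept their sign under it, at 0.30 for Plin2, 0.36 for Plin3, -0.22 for Plin4, -0.041 for Plin5, -0.25 for Cideb, 1.56 for Cidec and -0.83 for G0s2. Plin4 and Cidec were below the 60th percentile filter and have no value there. With the replicate block Cideb differed by -0.50 (limma adjusted p = 0.438), and this paired fit changed no call of a member; over all genes it called 1 gene against 0. The causes of these changes were not tested.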
